A study of Mus musculus with 2 samples.

Results

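The genes described here encode the enzymes and regulators that make polyamines, purine and pyrimidine nucleotides, deoxynucleotides, folate one-carbon units and serine. They were chosen as a list of 38 symbols by function, and 38 of the 38 had a row among the 20034 genes of the table of counts. The cells are mouse induced macrophages (iMac), which the series title describes as fibroblasts reprogrammed with c-Myc alone, and the labels call them wild type. The labels name a cDNA library and an oligo library of the same cells from the DNBelab C4 droplet system. Barcode names carried no sample, so the cells count as a single sample here, without a replicate or an untreated group. No test was therefore possible, and no p-value is given. How c-Myc was delivered, and whether its transcript is counted under Myc, is not given in the sources used here.

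Proliferating cells need nucleotides for RNA and DNA, and these pathways are joined. Serine made from glycolytic carbon gives its side carbon to folate, and the folate units enter the purine ring and the methyl group of thymidylate. Ribonucleotide reductase then makes deoxynucleotides, mostly around DNA replication. Polyamines are small cations made from ornithine and decarboxylated S-adenosylmethionine. Odc1, Cad and several other genes of these pathways are textbook targets of MYC, which binds the E box CACGTG with its partner MAX.

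After barcodes with under 500 genes or over 15% mitochondrial counts were left out, 6751 of 6837 were kept (per cell, median 17178 counts over 3160 genes). Ribosomal protein genes took 32.3% of the counts. The macrophage label was checked against 14 macrophage markers, and 14 of them reached 10 counts per 1000000 counts (CPM), between 11.9 and 5700 CPM. Of 10 fibroblast markers, 4 had a row, and the highest was Pdgfrb at 0.823 CPM, while Col1a1, Col1a2, Col3a1, Dcn, Lum and Thy1 had no row. Of 7 neutrophil granule markers, 4 had a row and only Prtn3 (96.3 CPM) reached 10 CPM. Of 5 monocyte markers, 4 reached it, and no T or NK cell, B cell, endothelial or epithelial marker did. Every interval below is a 95% interval that covers counting error only.

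RefSeq (GRCm38.p6) gave windows from 250 bases before to 50 after a start for 34 of the 38 genes. Srm, Azin1, Dhodh and Pfas had none. The E box CACGTG, which reads the same on both strands, was in a window of 7 of the 34 (20.6%), against 697 of 5375 genes at 10 CPM or more with a window (13%) and 7.15% of all 32851 windows. The 7 were Atic, Dtymk, Impdh2, Nme1, Paics, Sms and Tyms. The E2F-type letters GCGGGAA, searched on both strands, were in 5 of 34 (14.7%, against 10.5% of genes at 10 CPM or more), namely Mthfd1, Ppat, Prps1, Prps2 and Rrm1. The longer form TTTCCCGC, which overlaps GCGGGAA read on the other strand, was in Ppat and Prps2 (5.88% against 2.77%), and TTTGGCGC was in 0 of 34 (against 1.38%). CCAAT was in 16 of 34 (47.1% against 42.6%). The ATF4-type letters TGATGNAAN were in Prps1 alone of the 34 (2.94% against 2.6%). These matches describe letters, and they say nothing of binding.

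The 250 bases before the start are shown 5′ to 3′ for 4 genes with the E box, to show where it lies, and for both subunit genes of ribonucleotide reductase, whose levels parted between the S and G2M ranges described below. Capitals mark CACGTG in Nme1, Impdh2, Tyms and Dtymk, the reverse complement of GCGGGAA in Rrm1, and CCAAT in Rrm2, and other letters searched are not marked.
Nme1 (chr11:93968273-93968522, minus strand): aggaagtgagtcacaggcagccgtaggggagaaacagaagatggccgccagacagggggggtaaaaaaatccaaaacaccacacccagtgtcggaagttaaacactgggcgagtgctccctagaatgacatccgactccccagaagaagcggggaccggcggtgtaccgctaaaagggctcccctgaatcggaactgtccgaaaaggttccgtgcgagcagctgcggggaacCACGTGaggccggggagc
Impdh2 (chr9:108560186-108560435, plus strand): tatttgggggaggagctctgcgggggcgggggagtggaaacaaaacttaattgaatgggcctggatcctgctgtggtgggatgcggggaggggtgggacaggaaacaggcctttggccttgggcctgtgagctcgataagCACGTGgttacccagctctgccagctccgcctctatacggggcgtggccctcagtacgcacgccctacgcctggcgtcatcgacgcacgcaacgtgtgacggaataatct
Tyms (chr5:30073626-30073875, minus strand): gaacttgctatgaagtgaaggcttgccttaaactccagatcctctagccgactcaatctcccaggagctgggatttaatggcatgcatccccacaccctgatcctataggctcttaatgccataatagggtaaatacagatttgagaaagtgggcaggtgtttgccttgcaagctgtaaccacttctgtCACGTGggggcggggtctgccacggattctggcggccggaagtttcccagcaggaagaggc
Dtymk (chr1:93801935-93802184, minus strand): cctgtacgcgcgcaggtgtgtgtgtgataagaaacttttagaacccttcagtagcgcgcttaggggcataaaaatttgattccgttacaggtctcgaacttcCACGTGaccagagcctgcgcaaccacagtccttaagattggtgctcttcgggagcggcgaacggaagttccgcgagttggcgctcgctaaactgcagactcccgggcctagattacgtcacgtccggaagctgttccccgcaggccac
Rrm1 (chr7:102441445-102441694, plus strand): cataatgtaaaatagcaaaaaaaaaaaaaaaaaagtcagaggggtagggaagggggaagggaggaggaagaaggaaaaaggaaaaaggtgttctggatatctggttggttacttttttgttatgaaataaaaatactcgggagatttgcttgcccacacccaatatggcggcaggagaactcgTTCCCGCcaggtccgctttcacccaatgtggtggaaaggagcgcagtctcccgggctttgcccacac
Rrm2 (chr12:24708004-24708253, plus strand): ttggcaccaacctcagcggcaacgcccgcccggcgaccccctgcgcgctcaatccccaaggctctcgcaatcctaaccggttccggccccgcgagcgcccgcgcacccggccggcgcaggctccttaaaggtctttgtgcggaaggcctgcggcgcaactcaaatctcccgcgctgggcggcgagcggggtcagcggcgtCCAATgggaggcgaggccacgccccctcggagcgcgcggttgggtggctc
The E box began 18 bases before the start shown in Nme1, 61 in Tyms, 110 in Impdh2 and 148 in Dtymk. Nme1 also had a window at another start, not shown, whose own CACGTG began at -29 from that start. In Rrm1 the marked letters began 67 bases before the start, and in Rrm2 the CCAAT letters began 50 before it.

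Across all kept cells the 38 genes were well covered. All 38 reached 10 CPM, a level that 6656 of the 20034 genes (33.2%) reached. Their median was 65.2 CPM, against 30.9 CPM for all genes at that level, and together they took 0.695% of all counts. Where genes are compared with each other, CPM per kb of exon (GENCODE M21) is given. Whether the counts come from the 3′ ends of transcripts is not given, and for such counts the division by length would not apply.

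Among the polyamine genes, Oaz1, the antizyme that sends ornithine decarboxylase to degradation, had the highest level at 1520.0 CPM (1514 to 1526), or 594 CPM per kb. Odc1, the ornithine decarboxylase that makes putrescine, was at 77.3 CPM and 22.7 CPM per kb. Azin1, which resembles the decarboxylase and ties up antizyme, was at 29.3 CPM and 4.68 CPM per kb. The antizyme transcript was thus the highest and its inhibitor the lowest of the group on both scales. Srm, which makes spermidine, stood at 238 CPM (149 per kb). Sms, which makes spermine, stood at 109.8 CPM (18.3 per kb). Amd1, the decarboxylase of S-adenosylmethionine, stood at 50.5 CPM, and its near copy Amd2 was at 2.13 CPM, so reads of the copies cannot be fully told apart.

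Pyrimidine synthesis held the lowest levels as a group, with a median of 28.6 CPM over 4 genes. Cad, the multifunctional enzyme of the first steps, was at 36.6 CPM and Dhodh, the mitochondrial dehydrogenase that follows, at 17.6 CPM. Umps, which completes UMP, was at 51.6 CPM, and Ctps, which makes CTP, was at 20.5 CPM. Per kb these 4 genes ran between 2.78 (Dhodh) and 14.8 CPM (Umps).

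Purine synthesis spanned a wide range over its 11 genes. Prps1 and Prps2, which make the ribose donor PRPP, were at 52.3 and 33.9 CPM. Ppat, the committing amidotransferase, was at 38.8 CPM, Gart at 84.0 CPM, Pfas at 15.7 CPM, Paics at 131 CPM, Adsl at 59.3 CPM and Atic, which closes the ring, at 41.9 CPM. On the branch to GMP, Impdh2 stood at 193 CPM (62.7 per kb) and its isoenzyme gene Impdh1 at 24.1 CPM (7.31 per kb), while Gmps was at 51.8 CPM. Pfas was lowest of the 11 on both scales (1.97 per kb), and Impdh2 was highest. Paics and Ppat start head to head on chromosome 5 and their first exons overlap, and whether counting used the strand is not given, so reads from the shared stretch cannot be assigned. Likewise Impdh2 shares exon bases with Ndufaf3 (26.1 CPM) and Psph with Cct6a (203 CPM).

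In deoxynucleotide supply, Nme2 and Nme1, which encode nucleoside diphosphate kinases, had by far the most counts, at 1320.1 and 872 CPM. Per kb they stood at 1127 and 261 CPM, so Nme2 was above Oaz1 on that scale. Their genes are neighbours on chromosome 11, and the readthrough transcript Gm20390 had no row, so how reads of a joined transcript were counted is not known. Dut, which breaks down dUTP, was at 169.6 CPM, Dtymk, the thymidylate kinase, at 139 CPM, and Rrm1, the large subunit of ribonucleotide reductase, at 95.2 CPM. The thymidine kinase gene Tk1 was at 72.6 CPM, the thymidylate synthase gene Tyms at 65.7 CPM and Rrm2, the small subunit, at 64.7 CPM. Dck, the deoxycytidine kinase gene, had the lowest CPM of all 38 genes at 12.0 CPM (11.5 to 12.6).

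The mitochondrial arm of folate metabolism had more counts than the cytosolic one. Shmt2, the mitochondrial serine hydroxymethyltransferase gene, was at 258 CPM (82.8 per kb) and its cytosolic isoenzyme gene Shmt1 at 30.6 CPM (7.87 per kb). Mthfd2, a mitochondrial dehydrogenase and cyclohydrolase, was at 135 CPM (38.8 per kb) and the mitochondrial formate-releasing Mthfd1l at 47.2 CPM (10.6 per kb). Mthfd1, the cytosolic enzyme that combines these activities, was at 36.7 CPM (8.27 per kb). The serine genes were all high, with Phgdh, the first step, at 348 CPM (139.8 per kb), Psat1 at 233 CPM (54.8 per kb) and Psph, the last step, at 172 CPM (39.7 per kb).

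**Figure D1:**
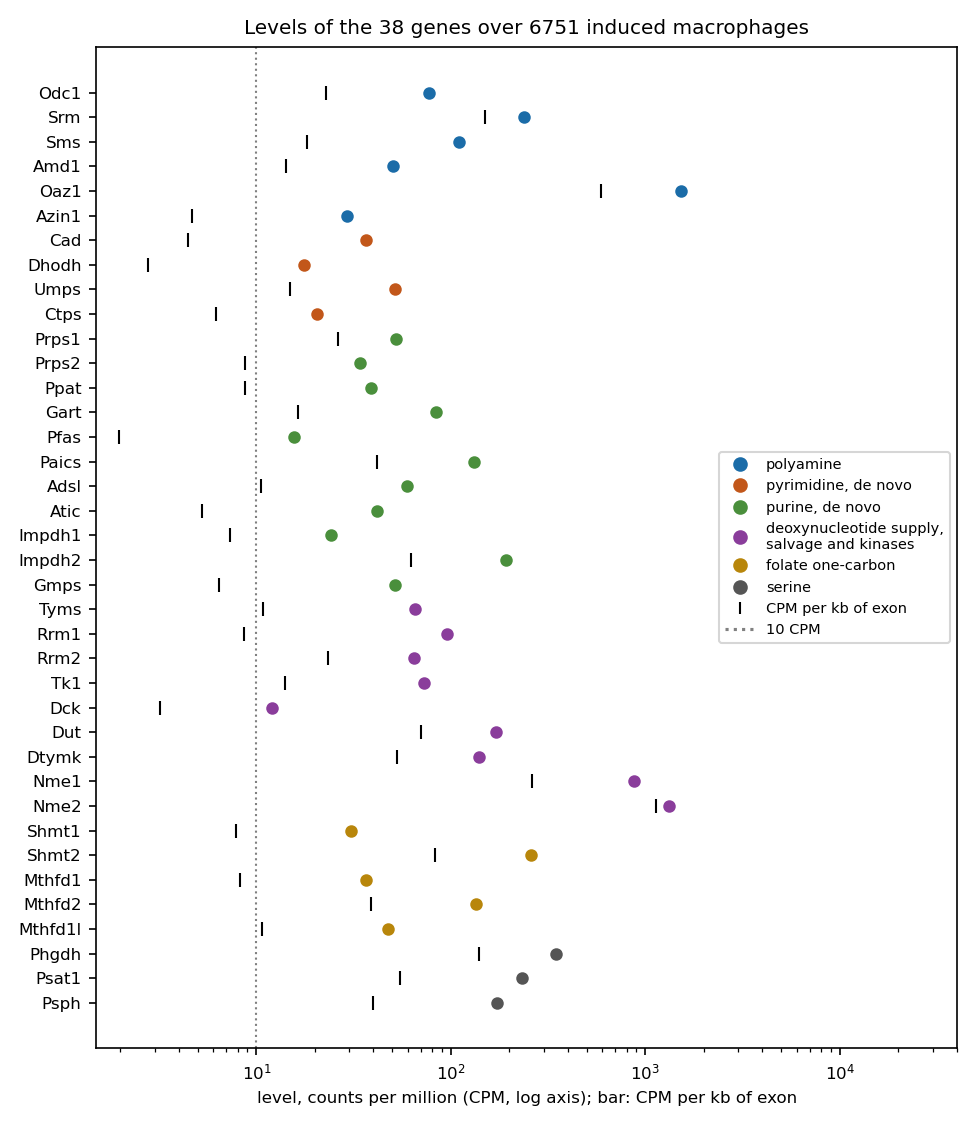
Level of each of the 38 genes over 6751 cells, as CPM (dots, coloured by role) and as CPM per kb of exon (bars), on a log axis. Oaz1, Nme2 and Nme1 lie between 872 and 1520.0 CPM, and Dck is lowest at 12.0 CPM.

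How evenly the transcripts were spread over cells was measured after each of the 5207 cells with 5000 or more counts had been thinned to 5000. The variance beyond counting error over the squared mean (squared CV beyond counting) had a median of 0.347 over the 38 genes and 0.434 over the 6656 genes. The lowest values were those of Oaz1 (0.0562), Nme2 (0.0621), Impdh2 (0.0956) and Adsl (0.102). Pfas (1.03), Tk1 (0.744), Prps2 (0.716) and Dck (0.694) were highest. Over all genes this measure is higher at low levels, so the order follows the level in part, but Rrm2 (0.672) and Tyms (0.307) differed at nearly the same level. No interval was computed for this measure, which divides by the mean and is least sure at low levels. So Impdh1 (0.676) and Ctps (0.484) cannot be ordered firmly, nor can the high values of Pfas and Dck.

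**Figure D2:**
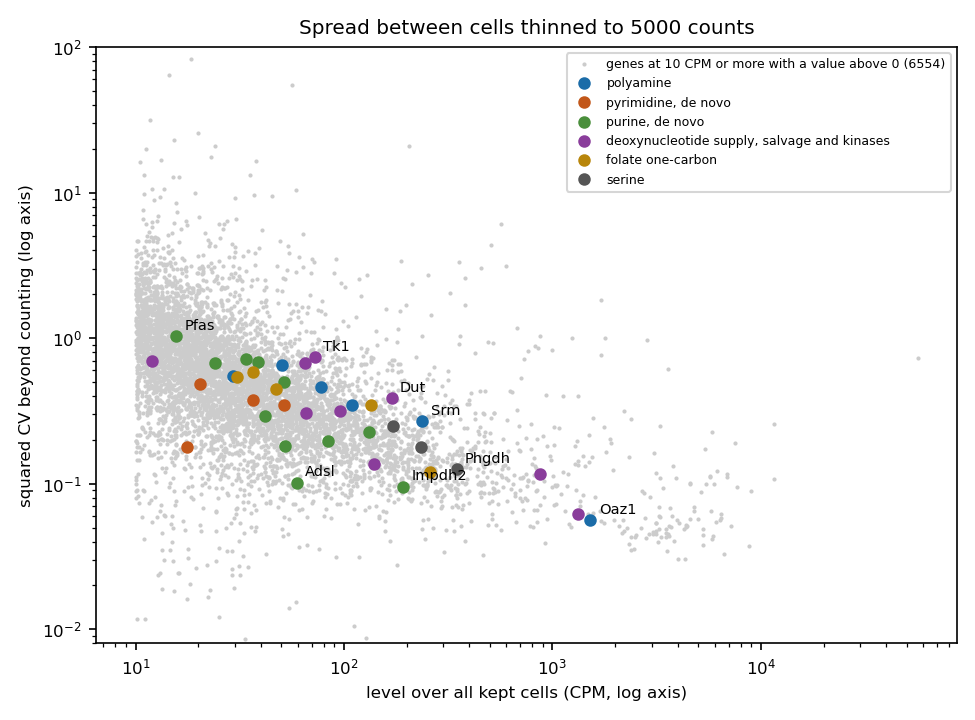
Squared CV beyond counting against level for the 38 genes (coloured by role) and for the 6554 genes at 10 CPM or more with a value above 0 (grey), both axes log. Oaz1 is lowest of the coloured points at 0.0562 and Pfas highest at 1.03.

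Because deoxynucleotides are needed for DNA replication, the genes were compared across the cell cycle. The 5207 thinned cells were placed by the summed counts of 40 S phase genes and 51 G2/M genes, neither list holding any of the 38. The S range held 662 cells with an S sum at or above its 75th percentile (13 counts) and a G2/M sum at or below its median (15 counts). The G2M range held 699 cells, with a G2/M sum of 24 or more and an S sum of 8 or less. A further 275 cells were at or above the 75th percentile of both. The low range held 751 cells at or below the 25th percentile of both (5 and 8 counts). These are ranges of a score and not cell types, and 378 cells sat exactly at the lower S limit. Levels below are CPM of the full counts summed over the cells of a range. The log2 ratio has a pseudocount of 1 CPM, its interval has none, and a gene is called past the fold at 0.5 or more in size.

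Most of the 38 genes were higher in the S range than in the low range. Past the fold were 31 of 38 genes higher and 0 lower, with a median log2 ratio of 0.87. Of all 6656 genes, 19.9% were past the fold higher and 4.78% lower, with a median of 0.157. By role, 7 of 9 deoxynucleotide and kinase genes were past the fold (median 1.61), 5 of 5 one-carbon genes (1.02), 4 of 4 pyrimidine genes (1.0), 9 of 11 purine genes (0.81), 4 of 6 polyamine genes (0.69) and 2 of 3 serine genes (0.55).

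The largest ratio was that of Rrm2 (chr12:24708241-24714146), at 123 CPM in the S range, 34.7 in the G2M range and 11.8 in the low range. Its S over low log2 ratio was 3.28 (3.19 to 3.60). Tk1 had 99.9 CPM in the S range, 63.7 in the G2M range and 13.3 in the low range, a log2 ratio of S over low of 2.82 (2.72 to 3.11). Dut stood at 242 CPM in the S range, 131 in the G2M range and 52.0 in the low range, a log2 ratio of 2.20 (2.12 to 2.32). These genes supply or guard the pool of DNA precursors, and their intervals in the 3 ranges do not overlap. That was not particular to them, as it also held for Umps, Ppat, Paics, Impdh2, Dtymk, Shmt1 and Mthfd2, among others. For Tyms the intervals of the S and G2M ranges overlapped. How many of all genes had intervals apart in this way was not counted. Rrm1, the partner subunit of Rrm2, had 111, 101 and 34.1 CPM in the S, G2M and low ranges. Tyms had 77.0, 70.2 and 24.5 CPM in the same order. Rrm1 and Tyms were thus nearly as high in the G2M range as in the S range, unlike Rrm2. Dck had 15.8, 8.88 and 7.38 CPM in the S, G2M and low ranges, with log2 ratios over low of 1.0 and 0.24. Dtymk had 165 CPM in the S range, 129 in the G2M range and 86.9 in the low range.

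Of the genes of de novo purine and pyrimidine synthesis, none reached the ratios of Rrm2, Tk1 and Dut. Umps had 66.0 CPM in the S range, 48.5 in the G2M range and 22.3 in the low range, a log2 ratio of S over low of 1.52. Ppat had 50.4, 35.5 and 18.8 CPM in the same order (1.37), and Ctps 24.9, 20.8 and 10.6 CPM (1.16). Gart (1.04), Pfas (0.94), Prps1 (0.93), Gmps (0.92), Cad (0.85), Paics (0.81), Atic (0.74), Impdh2 (0.59), Dhodh (0.57) and Prps2 (0.56) were also past the fold in S over low. Adsl, which acts at separate steps of purine synthesis, missed it at 0.47. Impdh1 did not share the pattern, with 24.7 CPM in the S range, 20.2 in the G2M range and 26.1 in the low range.

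Of the one-carbon genes, cytosolic Shmt1 (38.6, 29.5 and 13.1 CPM in the S, G2M and low ranges) and Mthfd1 (41.8, 37.97 and 17.4 CPM) had the largest S over low ratios, 1.49 and 1.22. The mitochondrial genes had higher levels in the G2M range than in the S range, where the median log2 ratio of S over G2M of all genes was -0.125. Mthfd2 and Mthfd1l lay below that median, but Shmt2 lay near it, as genes in general did. Mthfd2 had 125 CPM in the S range, 162 in the G2M range and 61.2 in the low range, with log2 ratios over low of 1.02 in S and 1.39 in G2M. Mthfd1l had 47.1, 60.5 and 27.0 CPM, and Shmt2 263, 284 and 156 CPM, in the same order. Among the serine genes, Psat1 had 229.7 CPM in the S range, 269.8 in the G2M range and 142 in the low range. Psph had 163, 193 and 111 CPM in that order, and Phgdh 364, 353 and 266 CPM.

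In the polyamine group the enzymes and the antizyme parted. Odc1 had 82.0 CPM in the S range, 75.9 in the G2M range and 42.5 in the low range, a log2 ratio of S over low of 0.93 (0.82 to 1.07). Srm had 246, 229 and 132 CPM in the S, G2M and low ranges. Amd1 had 50.3, 63.2 and 30.5 CPM, Azin1 29.2, 35.8 and 17.9 CPM, and Sms 102, 133 and 75.8 CPM. Amd1, Azin1 and Sms thus had more in the G2M range than in the S range. In the cells high in both scores these 5 genes had their highest values, with 87.7 CPM for Odc1, 273 for Srm, 68.2 for Amd1, 38.02 for Azin1 and 141 for Sms. Only for Srm (263 to 283) was the interval clear of the next highest range, the S range (239 to 253). Those of Odc1, Amd1, Azin1 and Sms overlapped it. No share of all genes was computed for the cells high in both scores. Oaz1 had 1603, 1406 and 1609 CPM in the S, G2M and low ranges, with a log2 ratio of S over low of -0.01 and of G2M over low of -0.19. The very abundant Nme2 was likewise nearly level in S over low (0.04), with 1352 CPM in the S range and 1319 in the low range, and Nme1 stood at 0.28, with 925 CPM in the S range and 763 in the low range. So 7 genes did not pass the fold in S over low, namely Nme1, Nme2, Oaz1, Impdh1, Sms, Phgdh and Adsl.

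In the G2M range over the low range, 29 of 38 genes were past the fold higher and 0 lower, with a median of 0.84. That reads against 37.8% of all genes higher and 4.55% lower, and a median of 0.336, so genes in general were also higher there. Tk1 led (2.18), then Rrm1 (1.54), Rrm2 and Tyms (both 1.48), Mthfd2 (1.39), Dut (1.31) and Pfas (1.27). Of the 9 genes not past the fold, Impdh1 (-0.35), Oaz1 (-0.19) and Nme2 (-0.14) were below 0, and Dck, Impdh2, Nme1, Paics, Phgdh and Adsl lay between 0.09 and 0.46. Ratios near 0 depend on the total. With ribosomal, mitochondrial and ribosomal RNA counts taken out of it, the median of all genes moved to 0.257 and that of the 38 genes to 0.736, with 34 genes above 0 in place of 35. In S over low the same total left 35 genes above 0 in place of 36, so ratios as near to 0 as that of Nme2 change side with the total.

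Set directly against each other, the S range was past the fold over the G2M range in 4 genes and lower in 0. These were Rrm2 (1.80, 1.72 to 1.94), Dut (0.89), Dck (0.77) and Tk1 (0.64), all of deoxynucleotide supply. Of all genes, 2.54% were past the fold higher and 15.2% lower in that comparison. The median of the 38 genes was 0.133 and that of all genes -0.125. On the other side, Sms (-0.38), Mthfd2 (-0.37), Mthfd1l (-0.35), Pfas (-0.34) and Amd1 (-0.32) had the lowest log2 ratios of S over G2M. S over low and G2M over low share the cells of the low range.

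**Figure D3:**
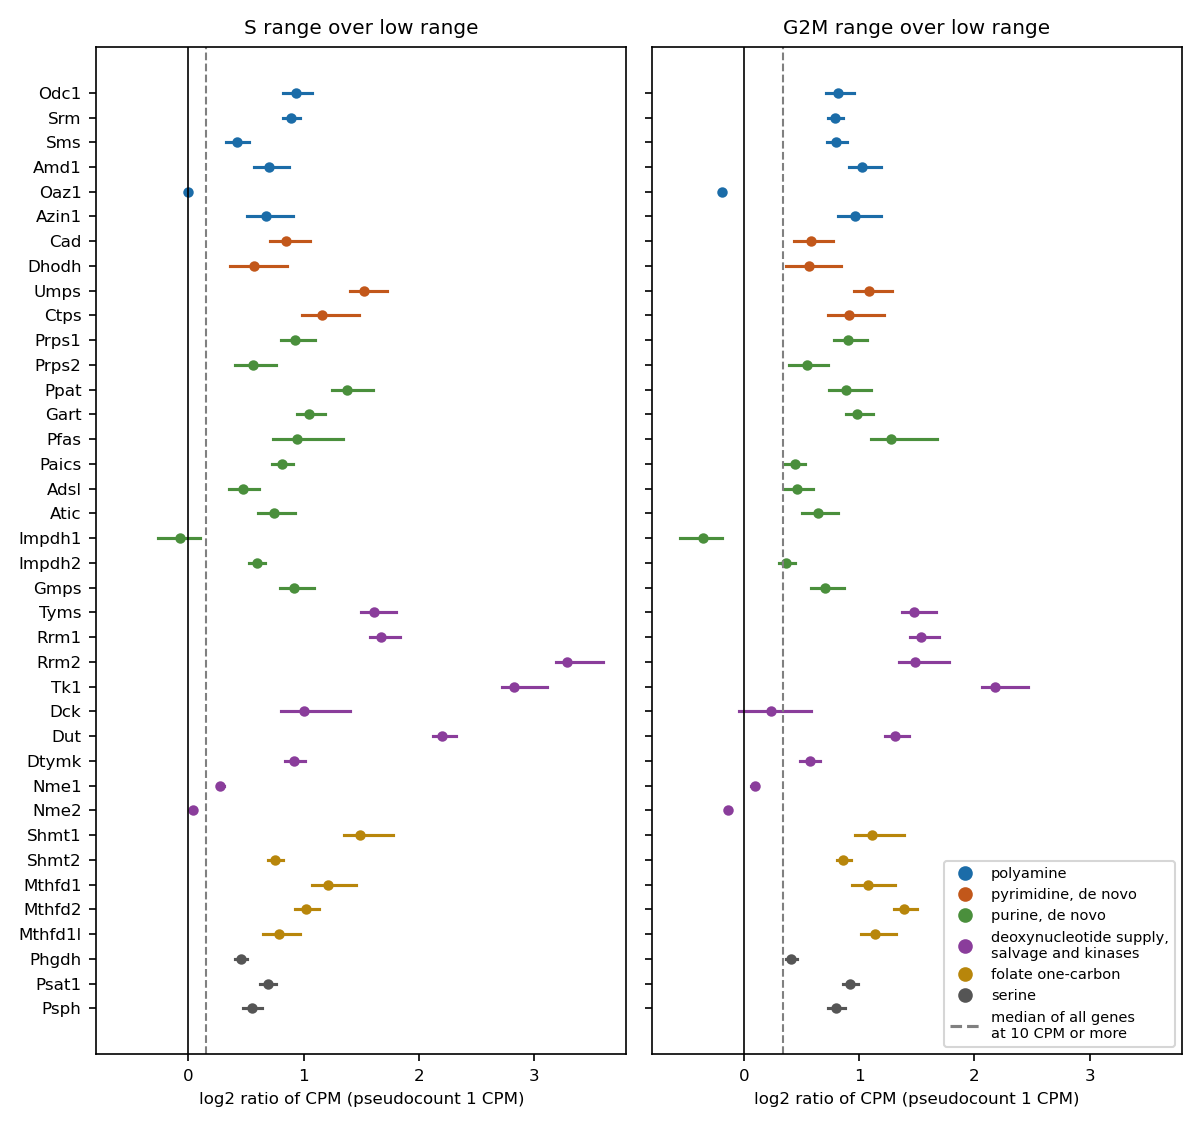
Log2 ratio of CPM for each gene, S range over low range (left) and G2M range over low range (right), with 95% counting intervals as bars, coloured by role, and the median of all genes at 10 CPM or more dashed. Rrm2 reaches 3.28 in the left panel and 1.48 in the right, and Impdh1, Oaz1 and Nme2 lie at or below 0.04 in both.

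Other measures moved with the ranges. Median counts per cell were 27977.5 in the S range, 30300.0 in the G2M range and 19220.0 in the low range. The summed level of the 14 macrophage markers was 13156 CPM in the S range, 12031 in the G2M range and 18133 in the low range, and 8 of the 14 were past the fold lower in S over low. Myc was at 44.3, 44.2 and 27.6 CPM in the S, G2M and low ranges. Their part in the ratios was not tested. Within the low range, the deeper 376 cells (median 32895.5 counts) had 2 genes past the fold higher than the shallower 375 cells (median 10936.0), Sms (0.65) and Gmps (0.50), and 2 lower, Rrm2 (-0.79) and Tk1 (-0.53). Of all genes, 10.5% were higher and 1.28% lower there, and the median of the 38 was 0.027.

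Some genes were also compared in pairs, isoenzymes (Impdh, Shmt, Nme and Prps) or genes of linked function (Mthfd2 with Mthfd1l, Odc1 with Azin1), by the share of the pair's counts that 1 of them held, which does not depend on the total. Impdh1 held 10.4% of the Impdh pair in the S range (9.58 to 11.3%), 10.03% in the G2M range and 15.7% in the low range (14.4 to 17.0%). Shmt1 held 12.8% of the Shmt pair in the S range, 9.41% in the G2M range, 14.1% in cells high in both scores and 7.74% in the low range. The cytosolic share was thus highest where the S score was high. Nme1 held 40.6% of the Nme pair in the S range, 40.5% in the G2M range and 36.6% in the low range. Prps1 held 62.2%, 62.1% and 56.0% of its pair in the same order. Mthfd2 held 72.6%, 72.7% and 69.4% of its counts with Mthfd1l, and 79.2% in cells high in both scores. Odc1 held 73.8% of its counts with Azin1 in the S range, 68.0% in the G2M range and 70.4% in the low range, and the interval of the low range overlapped both others.

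**Figure D4:**
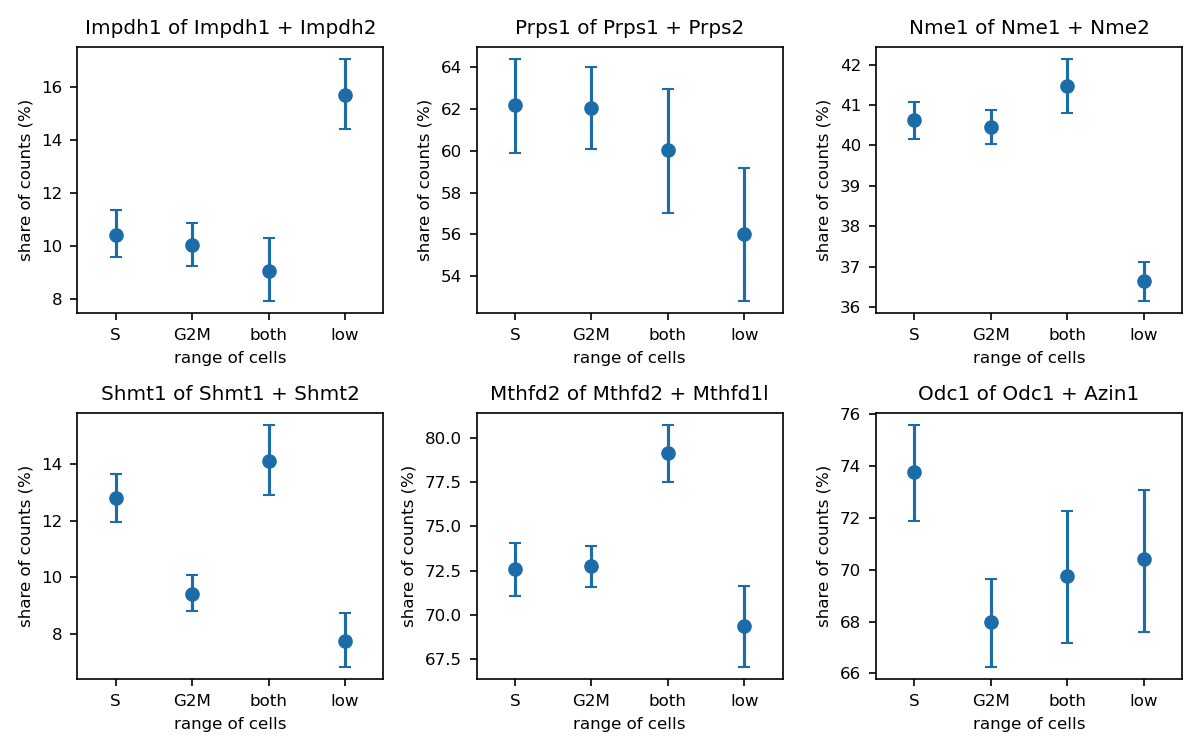
Share of a pair's counts held by the first gene of the pair, in the S range, the G2M range, cells high in both scores and the low range, with exact 95% binomial intervals as bars and axes that do not start at 0. The share of Impdh1 is highest in the low range at 15.7%, and that of Shmt1 lowest there at 7.74%.

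Cells were also clustered with the 38 genes and all other listed genes left out, which gave 9 clusters numbered by size. Clusters 1 (1560 cells, median 3682.5 counts), 8 (207 cells, 2257.0 counts) and 9 (25 cells) were shallow and are left out of the comparison here. Cluster 2 (1148 cells) was led by Ifit3, Rsad2, Ms4a7 and Folr2, and cluster 3 (1022 cells) by Ly6c2, Btg2, Ccr2 and Prtn3. Histone genes led clusters 4 (866 cells; Hist1h1b) and 7 (567 cells; Hist1h4c). Cluster 5 (701 cells) was led by Malat1 and Kcnq1ot1, and cluster 6 (655 cells) by Gm48099 and Camk1d. None was given a cell type name.

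Among clusters 2 to 7, 22 of the 38 genes had their lowest level in cluster 2 and 11 in cluster 7. The highest level was in cluster 6 for 10 genes, cluster 4 for 9, cluster 3 for 8, cluster 5 for 7, cluster 7 for 3 and cluster 2 for 1, which was Impdh1 (27.5 CPM). The median log2 distance from the lowest to the highest cluster was 0.984. Set against all other cells, cluster 7 had a median log2 ratio of -0.451 over all genes and -0.195 over the 38. In cluster 2 these medians were -0.09 and -0.522, and in cluster 5 they were 0.229 and 0.039. So genes in general were also lower in cluster 7 and higher in cluster 5. How many of all genes were lowest or highest in each cluster was not counted. The roles did not peak together. Rrm2 (118 CPM), Tk1 (120.1), Dut (259), Tyms (88.6) and Dck (16.7) were highest in cluster 4. So were Mthfd2 (181 CPM), Paics (169), Ppat (50.8) and Prps2 (42.0), of other roles. Of the deoxynucleotide and kinase genes, Rrm1 (134 CPM) was highest in cluster 6, with an interval that overlapped cluster 4 (126). Dtymk was level in clusters 7, 6 and 4 (161, 161 and 160 CPM, intervals overlapping). Cad (59.0 CPM), Gart (117), Shmt1 (46.3), Shmt2 (339), Phgdh (421) and Srm (275) were highest in cluster 6. Odc1 (95.5 CPM), Impdh2 (234), Atic (51.2) and Nme1 (956) were highest in cluster 3. Amd1 (70.4 CPM), Azin1 (40.1), Sms (145), Mthfd1l (67.9), Psat1 (272) and Psph (198) were highest in cluster 5. The polyamine genes Amd1, Azin1 and Sms were lowest in cluster 7, at 23.0, 12.0 and 60.5 CPM. Sms there overlapped cluster 6 (63.8 CPM). Nme2 (1649.6 CPM) was highest in cluster 7, and Oaz1 was level in clusters 7 and 6 (1598 and 1597 CPM). For Srm, Shmt1, Odc1, Impdh2, Atic, Amd1, Psph and Impdh1 the interval of the highest cluster also overlapped that of another. The counts of genes per cluster thus rest in part on differences within counting error.

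Cluster 3 set against cluster 2 had 23 of 38 genes past the fold higher and 0 lower, with a median of 0.573, against 9.69% of all genes higher, 9.96% lower and a median of 0.078. Cluster 4 set against cluster 2 had 25 higher and 0 lower, with a median of 0.625, against 13.4% and 7.75% of all genes and a median of 0.072. Tk1 differed between the comparisons. It had 42.1 CPM in cluster 3, 120.1 in cluster 4 and 42.5 in cluster 2, a log2 ratio of -0.01 for cluster 3 over cluster 2 and of 1.48 for cluster 4 over cluster 2. Umps, in contrast, had 58.9 CPM in cluster 3, 63.9 in cluster 4 and 31.3 in cluster 2. The comparisons share cluster 2. The S list summed to 1956 CPM in cluster 3, 2767 in cluster 4 and 1355 in cluster 2. The G2/M list summed to 2762 CPM in cluster 3, 4693 in cluster 4 and 1899 in cluster 2. The macrophage list summed to 12264 CPM in cluster 3, 12198 in cluster 4 and 16962 in cluster 2. Their part in the ratios was not tested.

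**Figure D5:**
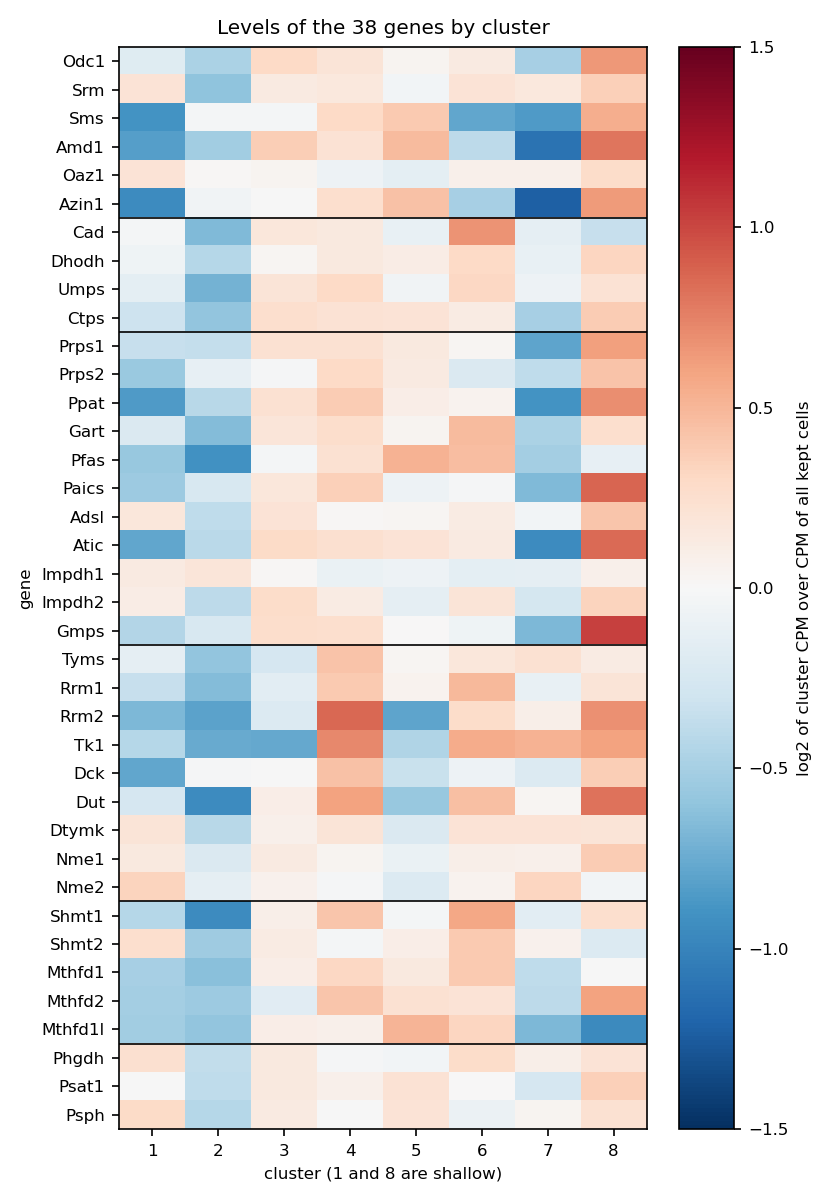
Level of each of the 38 genes in clusters 1 to 8 as the log2 ratio of the cluster's CPM to that of all kept cells, by colour, with lines between roles. Cluster 2 is the lowest of clusters 2 to 7 for 22 genes, and Rrm2, Tk1 and Dut are highest in cluster 4 among these.

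The clusters were not spread evenly over the ranges. Cluster 2 held 55.7% of the low range, and cluster 5 held 48.9% of the G2M range. Inside cluster 2, the 101 cells of the S range had a median log2 ratio of 0.651 over the 418 cells of the low range, with 37 of 38 genes above 0, against 0.149 for all genes. Inside cluster 3, with 178 cells of the S range and 118 of the low range, it was 0.621, with 35 of 38 genes above 0, against 0.149. How many of all genes were above 0 inside these clusters was not counted. Rrm2 had 98.2 CPM in the S range and 8.43 in the low range within cluster 2, and 101 CPM in the S range and 13.8 in the low range within cluster 3. Odc1 had 66.9 CPM in the S range and 42.1 in the low range within cluster 2, and 84.1 in the S range and 51.6 in the low range within cluster 3.

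Myc is the factor that the series title names, so cells with a Myc count after thinning (833) were set against cells with none (4374). On full counts Myc was at 91.8 CPM in cells with a Myc count and 29.5 CPM in cells without, so the split is one of detection. Past the fold were 0 of 38 genes, and 0.015% of all genes higher and 0.0601% lower. The 1 gene of the 6656 that was higher is Myc itself, by which the cells were split. The median of the 38 was 0.075 and that of all genes 0.022. Atic had the highest ratio at 0.28 (49.4 CPM with a Myc count and 40.4 CPM without), then Pfas (0.22) and Ppat (0.21), and Psph the lowest at -0.14 (158 CPM with and 174 CPM without). Odc1 had 79.6 CPM with a Myc count and 76.7 CPM without. The S list stood at 2032 CPM with a Myc count and 1888 CPM without. Within the S range, with 143 cells with a Myc count and 519 without, the median of the 38 was 0.003, and within the low range, with 90 cells with and 661 without, it was 0.0.

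Genes that join the same pathways were read from further lists. In polyamine use and breakdown 13 of 22 genes reached 10 CPM. Eif5a, the factor that spermidine modifies, was at 1481 CPM, and Sat1, which starts polyamine breakdown, was at 266 CPM. Sat1 ran against the synthesis genes, with 271 CPM in the S range, 243 in the G2M range and 361 in the low range, and passed the fold lower in G2M over low (-0.57). Mat2a, which makes S-adenosylmethionine (217 CPM), was past the fold higher in S (0.64) and G2M (0.91), and Mtap, which salvages its spent product, likewise (both 0.99). In all, 3 of the 13 were past the fold higher in S over low and 0 lower, against 19.9% and 4.78% of all genes. In G2M over low 5 were higher and 1 lower, against 37.8% and 4.55% of all genes. The counts of higher genes were thus near those of genes in general.

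Of the purine salvage and conversion list, 17 of 21 reached 10 CPM, among them Aprt (873 CPM) and Hprt (157 CPM), which salvage free purine bases. In S over low 3 of the 17 were past the fold higher, among them Ampd2 (0.70) and Itpa (0.70), which is not above the 19.9% of all genes, and Aprt and Hprt were at -0.03 and 0.35. Of the other pyrimidine genes, 6 of 14 reached 10 CPM and 3 were past the fold in S over low, among them the uridine kinase gene Uck2 (0.91). Of the other deoxynucleotide genes, 9 of 14 reached 10 CPM and 4 were past it, with Dctd (1.01), the transporter gene Slc29a1 (0.96) and Dctpp1 (0.64) highest. Samhd1, which breaks down deoxynucleotides, had 69.4 CPM in the S range, 71.5 in the G2M range and 87.7 in the low range.

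Of the other folate genes 9 of 20 reached 10 CPM, with 3 past the fold higher in S over low and 2 lower, against 19.9% and 4.78% of all genes. Folr2, a folate receptor gene of macrophages that also led cluster 2, had 8.25 CPM in the S range, 9.57 in the G2M range and 36.8 in the low range (-2.03 in S over low). Of serine and glycine transport and use, 5 of 10 genes with a row reached 10 CPM and 5 were past the fold higher in S over low, led by the transporter gene Slc1a5 (1.02). Of 16 genes of the amino acid response, 11 reached 10 CPM, and 5 were past the fold higher in S over low, against 19.9% of all genes. In G2M over low 8 of the 11 were past the fold higher, against 37.8% of all genes, and Ddit3 was lower (-0.61). Atf4, the factor known to drive Phgdh, Psat1, Shmt2 and Mthfd2, had 207 CPM in the S range, 305 in the G2M range and 110 in the low range. Its log2 ratio of S over G2M was -0.55, with 0.04 for Phgdh, -0.23 for Psat1, -0.11 for Shmt2 and -0.37 for Mthfd2. The median of all genes was -0.125 in that comparison, so Shmt2 lay near it and Phgdh above it.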

How the data were processed

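The deposited matrix holds whole-number counts for each gene in each barcode. PISA (version 0.12) wrote it, per the file headers, and the submitters' processing notes also name Cell Ranger and mm10 without saying what for. Not given in the sources used here are the aligner, the annotation, how barcodes were called, and whether reads or molecules were counted. If reads were counted, the intervals are too narrow. The labels' 2 libraries could not be told apart in the 1 matrix, so it was taken as 1 sample, with 160606727 counts over 6837 barcodes and at least 1001 per barcode.

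From these counts, barcodes were kept with 500 or more genes and 15% or fewer mitochondrial counts, and 86 were left out. Doublets were not called and were left in. Levels are CPM of summed counts with exact Poisson intervals, shares have Clopper-Pearson intervals, and ratios have exact binomial intervals given their total (scipy 1.17.1). Gene positions and exon lengths are from GENCODE M21 (GRCm38). Clusters came from 2000 variable genes, 30 components, 15 shared nearest neighbours and the Leiden algorithm at resolution 0.5 (igraph 0.11.9), with 285 list genes left out. All 38 genes are named with their level. The plan was to name genes past the fold in comparisons of ranges, up to 20 by size. For other lists it was the 3 highest genes and up to 3 past the fold each way. Only some of the genes that this rule gives for the other lists are named here. Further genes (Samhd1, those of the cluster comparisons, and those below the fold) were named after their values were seen. The members and lists were chosen with earlier results of these data known. The deeper against shallower cells of the low range and the comparisons of clusters 3 and 4 with cluster 2 were chosen after seeing the data. The ratios, their intervals and the thinning with its spread were tested on simulated data. The placing in ranges, the clusters, the pair shares and the motif search were not.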

Additional observations from a re-analysis of the deposited data

How the results depend on the processing

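No paired analysis was possible because the matrix is 1 sample with no replicates and no test was run. No median of the 38 genes was below 0, while that of all genes by Myc detection, 0.022 as reported, was -0.009 with a level limit of 50 CPM and -0.034 within the low range. In S over low, the median log2 ratio of the 38 genes ran from 0.815 to 0.959 under 12 of the 14 alternatives, and was 0.69 with a pseudocount of 10 CPM and 0.741 with wider ranges set at less extreme percentiles. In G2M over low it ran from 0.765 to 0.922 under 11 alternatives. It was 0.724 and 0.707 under the same alternatives, and 0.736 with ribosomal, mitochondrial and ribosomal RNA counts taken out of the total. Counts past the fold ran from 28 to 33 in S over low and from 25 to 32 in G2M over low. With a level limit of 50 CPM in place of 10, 25 genes were left by construction, with 19 and 18 past the fold. S over G2M ran from 0.091 to 0.187. The median by Myc detection ran from 0.032 to 0.118, and was 0.0 within the low range and 0.003 within the S range, alternatives added after seeing the data. So were another random thinning and the removal of the deepest 5% of cells, as doublets were left in. The number of clusters with 50 or more cells was 8, or 12 at resolution 1.0 and 7 with all list genes kept. Intervals cover counting error only, and the spread between cultures is unknown. Genes near 12 CPM, such as Dck, have the widest intervals.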

Other observations

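Cluster 8, the 207 shallow cells with a median of 2257.0 counts, had the highest level among clusters 1 to 8 of many of the 38 genes, among them Gmps (106 CPM, against 51.8 over all kept cells), Paics (241 against 131), Odc1 (122 against 77.3) and Dut (298 against 169.6). Mthfd1l was lowest there, at 23.8 CPM against 47.2, but on 15 counts (13.3 to 39.2), which overlapped cluster 7 (25.9 to 32.8). The macrophage list summed to 4969 CPM in cluster 8, against 13216 over all kept cells. The S list summed to 3209 CPM against 1917, and the G2/M list to 5344 against 3832. Their part in these levels was not tested. Over all other cells, cluster 8 had a median log2 ratio of 0.358 for the 38 genes and 0.134 for all genes. How many of all genes were highest there was not counted. Over all 1544 cells below 5000 counts, set against the 5207 deeper cells, the median log2 ratio of the 38 genes was 0.104, with 33 of 38 above 0. That of all genes was 0.095, with 4637 of 6656 above 0, so most genes were higher there.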
